A study of Mus musculus with 4 samples.

Results

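Lysine acetylation is written, removed and read by separate sets of proteins, and the transcripts of 30 genes of these sets were followed here in cells sorted from the injured mouse retina. The genes were chosen by name from textbook families: 10 acetyltransferases, 11 zinc-dependent histone deacetylases (HDACs) in their classes, 7 sirtuins and 2 bromodomain readers of the BET family. All 30 were found among the 56493 genes of the deposited table, and all 30 passed the filter on low counts that left 19638 genes. The retinas came from wild-type mice that had been injected in the vitreous with an AAV2 vector (adeno-associated virus) and had the optic nerve crushed a month afterwards. In 1 group, AAV2-CrAT, the vector was given for overexpression of carnitine acetyltransferase, an enzyme that passes acetyl groups from coenzyme A to carnitine and back. In the other, AAV2-MCS, the labels do not spell out the insert. Both groups had the crush, each had 2 libraries, and no library without crush was analysed here. The titles also carry the tag NCd8, which the labels do not explain, and they do not say whether the replicates came from separate animals, so the spread behind the p-values below may be technical.

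Acetyltransferases move the acetyl group of acetyl-CoA onto lysines of histones and other proteins, which loosens chromatin and marks active promoters and enhancers. HDACs of classes I, II and IV remove it with the help of zinc, and sirtuins do so with NAD, so both directions are tied to metabolism. Bromodomain proteins such as Brd2 and Brd3 bind the acetylated lysines and carry transcription factors and elongation factors to them. In retinal neurons HDACs, Hdac3 among them, are known for their part in the silencing of genes after axon injury. The comparison asks whether the transcripts of this machinery differ when the vector for an enzyme of acetyl-CoA handling is given.

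The groups lay well apart in the BET readers, the acetyltransferases Ep300 and Crebbp, the deacetylases Hdac7 and Hdac6 and the sirtuin Sirt7. These genes were singled out by that gap after the values were seen, and its share over all genes was not computed. Of the 30 genes, 10 had both CrAT libraries below both MCS libraries, beside 16.6% of all genes. In 6 both lay above, beside 15.0% of all genes. Brd2, Brd3, Ep300, Crebbp, Hdac7 and Sirt7 were lower in both CrAT libraries than in either MCS library, by 1.39-fold to 1.76-fold of the group means, and Hdac6 was higher, by 1.59-fold. None of the 30 genes passed the test over all genes (edgeR quasi-likelihood test with Benjamini-Hochberg adjustment at 0.05), nor did any of the 19638 genes, a background of 0%. At an unadjusted p under 0.05 there were 2 of the 30, Brd2 and Hdac7, both lower in CrAT, against 4.15% of all genes in either direction and 2.87% lower in CrAT. DESeq2 called 0 of the 30, and 54 of all genes (0.275%), and limma on FPKM values called 0 of the 30 and 0 of all genes. The results below are therefore differences in level that the replicates do not separate from their spread.

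Promoter windows of 5 genes whose groups lay well apart are printed: Brd2, Brd3, Ep300 and Hdac7, lower in CrAT, and Hdac6, higher. They were picked by name with their values known. Windows of Crebbp and Sirt7 are not printed. The gaps between their nearest libraries, 31.9% and 32.9%, were wider than the 29.8% of Brd3. Each window runs 5′ to 3′ on the strand of the gene, from 250 bases before a RefSeq start to 50 bases after it, in build GRCm38.p6. Capitals mark the GC box GGGCGG, which Sp1-type factors bind, and the CCAAT box, on either strand. Also searched were CCGGAAG (ETS), TGACG (a partial cyclic AMP response element), TGANTCA (AP-1), CACGTG (E-box) and TATAAA, none of which occurs in these windows. For Brd2 and Hdac7, with 3 and 4 windows in the table, the first listed is shown.
Brd2: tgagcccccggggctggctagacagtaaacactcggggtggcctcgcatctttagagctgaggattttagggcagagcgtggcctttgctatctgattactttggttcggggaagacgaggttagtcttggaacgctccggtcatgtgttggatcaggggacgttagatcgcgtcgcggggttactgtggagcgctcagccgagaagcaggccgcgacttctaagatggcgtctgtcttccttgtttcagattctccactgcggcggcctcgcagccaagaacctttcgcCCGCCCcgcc
Brd3: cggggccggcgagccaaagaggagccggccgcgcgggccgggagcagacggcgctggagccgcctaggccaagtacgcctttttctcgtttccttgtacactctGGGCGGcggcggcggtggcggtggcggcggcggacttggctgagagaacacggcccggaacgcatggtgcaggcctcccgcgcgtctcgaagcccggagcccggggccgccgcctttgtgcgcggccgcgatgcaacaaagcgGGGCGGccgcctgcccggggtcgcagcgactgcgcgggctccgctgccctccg
Ep300: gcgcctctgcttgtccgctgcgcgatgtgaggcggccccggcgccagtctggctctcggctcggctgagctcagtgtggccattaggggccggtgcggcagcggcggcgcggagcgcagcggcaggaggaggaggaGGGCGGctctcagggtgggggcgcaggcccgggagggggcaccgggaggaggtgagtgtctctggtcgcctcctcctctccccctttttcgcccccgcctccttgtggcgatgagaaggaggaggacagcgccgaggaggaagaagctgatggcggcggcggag
Hdac7: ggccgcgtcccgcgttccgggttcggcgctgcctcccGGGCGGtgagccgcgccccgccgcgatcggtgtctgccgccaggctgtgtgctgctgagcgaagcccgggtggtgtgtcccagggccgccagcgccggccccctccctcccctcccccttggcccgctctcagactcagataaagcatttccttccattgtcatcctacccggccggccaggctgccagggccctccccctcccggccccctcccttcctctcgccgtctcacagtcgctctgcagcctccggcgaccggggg
Hdac6: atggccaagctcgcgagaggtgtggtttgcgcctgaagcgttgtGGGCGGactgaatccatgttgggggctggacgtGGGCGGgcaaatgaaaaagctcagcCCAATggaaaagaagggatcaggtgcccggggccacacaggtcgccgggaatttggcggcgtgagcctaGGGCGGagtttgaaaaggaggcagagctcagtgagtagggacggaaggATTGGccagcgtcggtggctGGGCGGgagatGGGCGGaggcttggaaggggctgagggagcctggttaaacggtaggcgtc
These are, on the stated build, chr17:34119851-34120150 on the minus strand for Brd2, chr2:27475349-27475648 on the minus strand for Brd3, chr15:81585964-81586263 on the plus strand for Ep300, chr15:97831446-97831745 on the minus strand for Hdac7 and chrX:7947840-7948139 on the minus strand for Hdac6. The 4 printed windows of genes lower in CrAT hold a GC box and no CCAAT box. That of Hdac6 holds 5 GC boxes and 2 CCAAT boxes. In the windows not printed the CCAAT box did not follow the direction. Those of Kat8 and Hdac5, lower in CrAT, and of Kat7 and Hat1, higher, hold it. Those of Crebbp, Kat6b, Sirt1 and Sirt7, lower, and of Hdac2 and Sirt4, higher, do not. The window of Sirt7 also holds 2 ETS matches.

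Depth was 24494253 to 27097438 counts per library, and the lowest count of a member was 76, for Sirt1. Values for one gene across libraries are given as CPM (counts relative to TMM-scaled library size) and values that compare genes as FPKM, which also divides by exon length. The sort was not pure by its transcripts. Summed rod markers were 23510 to 44623 CPM, whereas 11 ganglion cell markers came to 113 and 295 CPM with CrAT and 89.0 and 200.4 CPM with MCS, so the values below are those of a mixture of retinal cells. In such bulk samples fewer cells of a type and less RNA per cell cannot be told apart. Mueller glia markers differed between the groups, with sums of 15569 and 12697 CPM in CrAT against 23253 and 20960 CPM in MCS. By fold change 12 of 12 were lower in CrAT, and 8 were so without overlap, beside 16.6% of all genes. Nuclear retained RNA came to 1483 CPM in MCS replicate 1 and to between 415 and 549 CPM elsewhere, and ribosomal protein RNA to 9390 CPM there and between 12171 and 13963 CPM elsewhere. Crat was 72.5 and 49.9 CPM with CrAT and 38.3 and 47.7 CPM with MCS, higher without overlap, as in 15.0% of all genes. It did not pass the test (log2 fold change 0.51, SE 0.33, edgeR adjusted p = 1). Leaving out CrAT replicate 1 brought the log2 fold change to 0.22, and leaving out CrAT replicate 2 brought it to 0.77. The intended overexpression was thus not clearly seen in these counts. Whether vector transcripts were counted as Crat was not tested.

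Per exon length, the most abundant of the 30 were Hdac1, the class I deacetylase of the Sin3 and NuRD complexes, with a mean of 30.6 FPKM over the 4 libraries, the type B acetyltransferase Hat1, which acetylates new histone H4, with 25.6 FPKM, and the cytoplasmic tubulin deacetylase Sirt2, with 24.1 FPKM. Hdac3, the catalytic subunit of the NCoR complexes, followed with 22.2 FPKM and Brd2 with 21.9 FPKM. These 5 overlapped their neighbours in the order over the single libraries, as with Hdac1 at 27.2 to 32.0 FPKM and Hat1 at 20.6 to 31.0 FPKM. At the low end stood Hdac4 with 1.82 FPKM, Kat6b with 1.31 FPKM and Sirt1, the nuclear sirtuin, with 0.913 FPKM. Sirt1 had 0.530 to 1.21 FPKM in single libraries, below Sirt2 by 19.5-fold to 42.9-fold in each of the 4. As a whole the set lay above the middle of the genes tested, with 22 of 30 above their median of 3.61 FPKM.

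**Figure D1:**
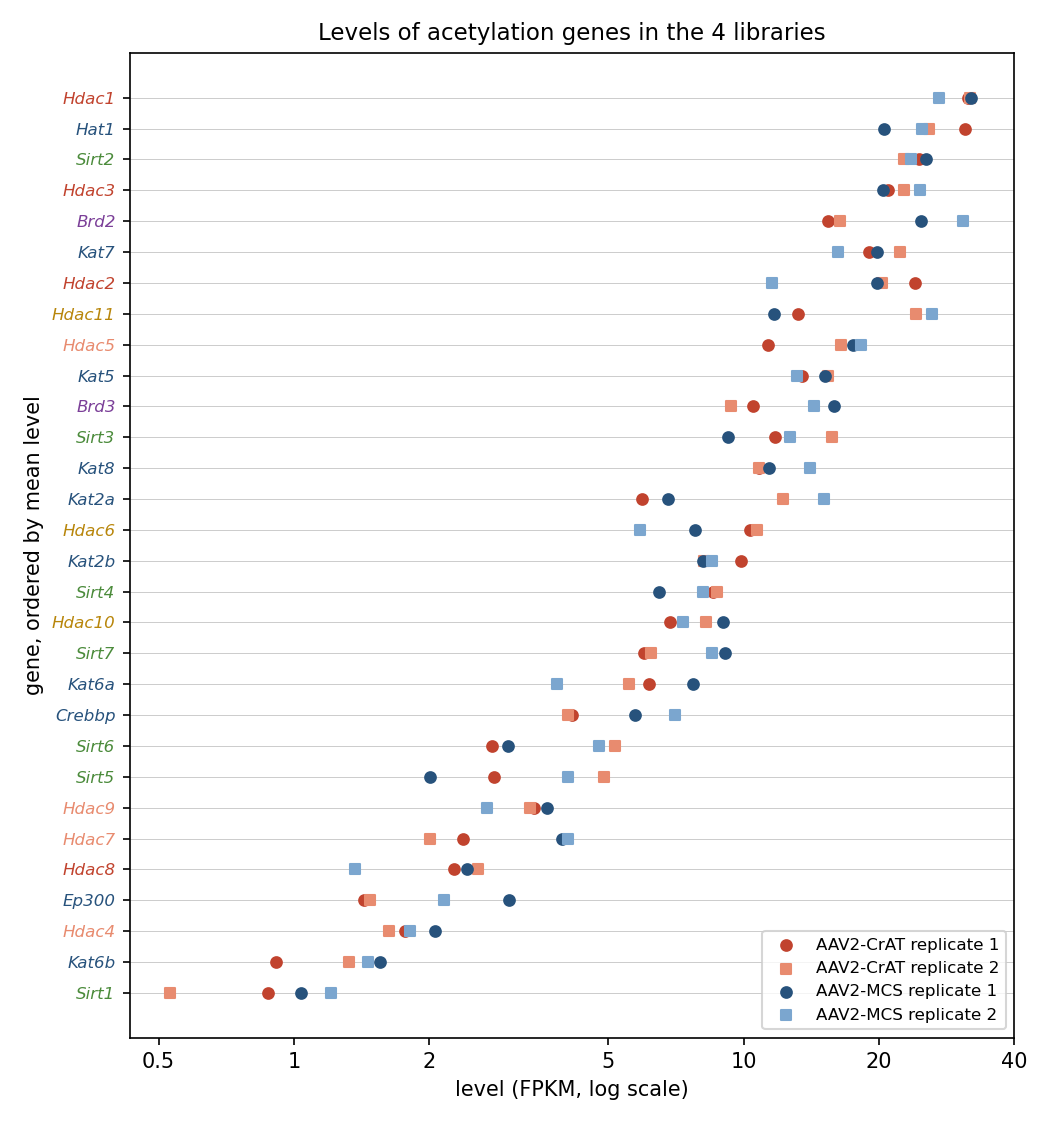
Level of each of the 30 genes in the 4 libraries, in FPKM on a log scale, ordered by the mean; circles and squares are replicates 1 and 2, red shades AAV2-CrAT and blue shades AAV2-MCS, and gene names take the colour of their class. Levels run from 0.913 FPKM for Sirt1 to 30.6 FPKM for Hdac1, and for most genes the 4 libraries lie closer together than the genes do.

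Both BET readers lay lower in CrAT. Brd2, which recruits E2F and other factors to acetylated histone H4, was 124 and 129 CPM in the CrAT libraries (mean 127 ± 3.27, SD, n = 2) and 191 and 237 CPM in the MCS libraries (mean 214 ± 32.1, SD, n = 2), always replicate 1 first. The higher of the CrAT libraries was 1.48-fold below the lower of the MCS libraries. Its log2 fold change was -0.76 (SE 0.28, 95% interval -1.44 to -0.07), with an unadjusted p of 0.0347 and an adjusted p of 1 in edgeR, and an adjusted p of 0.881 in DESeq2. Brd3, which binds acetylated GATA factors, was 79.6 and 69.2 CPM against 115 and 103 CPM, without overlap, at a log2 fold change of -0.55 (SE 0.27, 95% interval -1.21 to 0.11). The sum of both per exon length was 25.9 and 25.7 FPKM in CrAT and 40.7 and 45.2 FPKM in MCS. Across the genes tested 16.6% had both CrAT libraries below both MCS libraries. Mueller glia markers were also lower in CrAT, 12 of 12 by fold change and 8 of them without overlap. Their part in these values was not tested.

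A list of 27 other acetyl-lysine readers held genes on both sides. In edgeR 0 of the 27 passed, and 2 had an unadjusted p under 0.05, both higher in CrAT (1.28% of all genes). Brd9 and Brd7, subunits of the BAF and PBAF remodelling complexes, were higher in CrAT. Brd9 was 47.5 and 49.4 CPM with CrAT and 28.2 and 20.1 CPM with MCS, at a log2 fold change of 1.01 (SE 0.32, unadjusted p = 0.0190, adjusted p = 1 in edgeR). Brd7 was 43.7 and 48.3 CPM against 24.8 and 30.2 CPM, at 0.74 (SE 0.30). Bptf, the reader subunit of the NURF remodeller, was lower, with 35.3 and 24.6 CPM against 42.9 and 52.9 CPM. The list had 9 genes above 0 and 18 below, with a median log2 fold change of -0.21 beside 0.01 over all genes.

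The paired coactivators Ep300 and Crebbp, large acetyltransferases that act on histone H3 lysine 27 at enhancers, were both lower in CrAT. Ep300 was 21.0 and 21.2 CPM with CrAT and 42.3 and 30.1 CPM with MCS. The CrAT libraries nearly coincided, and the MCS libraries lay apart, with MCS replicate 1, the library with the most nuclear retained RNA, the highest. The log2 fold change was -0.78 (SE 0.33, 95% interval -1.58 to 0.03), and -0.51 without that library. Crebbp was 57.9 and 55.4 CPM against 76.4 and 93.7 CPM, at -0.59 (SE 0.28, 95% interval -1.26 to 0.09), and here MCS replicate 2 was the highest. Per exon length Ep300 stood at 0.305 to 0.526 of Crebbp in the same library, and the ratio was 0.345 and 0.363 in CrAT, between the 2 MCS values.

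The other acetyltransferases differed less. Hat1 was 92.5 and 75.3 CPM with CrAT and 58.4 and 70.5 CPM with MCS, higher without overlap, at a log2 fold change of 0.38 (SE 0.29). Kat7, the MYST-family enzyme of histone H3 lysine 14, was 108.4 and 124.0 CPM against 107.8 and 87.9 CPM, with 0.549% between the nearest libraries of the groups. Kat8, which acetylates histone H4 lysine 16 in the MSL and NSL complexes, was 32.3 and 31.6 CPM against 32.4 and 39.9 CPM, with 0.361% between the nearest. Kat6b was 15.8 and 22.5 CPM against 25.7 and 24.2 CPM, and its relative Kat6a, at 59.3 and 52.4 CPM against 70.9 and 35.2 CPM, had CrAT libraries between the MCS libraries. Kat5 (Tip60), of the NuA4 complex, and Kat2b (PCAF) overlapped, at 45.4 to 54.4 CPM and 39.0 to 49.6 CPM over the 4 libraries. Of the 10 acetyltransferases 2 were higher and 4 lower without overlap, beside 15.0% and 16.6% of all genes, and the median log2 fold change was -0.05. Their sum per exon length was 99.8 to 107 FPKM over the libraries, with the CrAT libraries at 102.8 and 107.2 FPKM and the MCS libraries at 99.8 and 106.5 FPKM.

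Class I deacetylases are the nuclear enzymes of the corepressor complexes, and all 4 had a fold change above 0, except that Hdac3 turned to -0.049 with library totals only, to -0.0044 with a stricter filter and to -0.043 with limma on FPKM. Hdac2, which shares most complexes with Hdac1, was 111.3 and 91.4 CPM with CrAT and 87.3 and 50.7 CPM with MCS. The log2 fold change of 0.55 (SE 0.35, 95% interval -0.30 to 1.41) rested on MCS replicate 2, without which it was 0.22. Hdac1 was 112.1 and 110.6 CPM against 108.6 and 91.8 CPM, at 0.15 (SE 0.27). Hdac3 was 87.5 and 93.0 CPM against 81.6 and 98.5 CPM, with the CrAT libraries between the MCS ones, at 0.00 (SE 0.27, 95% interval -0.66 to 0.67). Hdac8, the X-linked cohesin deacetylase, was 11.4 and 12.5 CPM against 11.6 and 6.48 CPM. In MCS replicate 2 both Hdac2 and Hdac8 were at their lowest, and the ratio of Hdac1 to Hdac2 per exon length was 2.35 there, against 1.31 to 1.62 in the other 3 libraries.

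Class IIa deacetylases bind MEF2 factors and shuttle between nucleus and cytoplasm with calcium signalling. Hdac7, best known from thymocytes and endothelial cells, was 16.5 and 13.7 CPM with CrAT (mean 15.1 ± 2.05, SD, n = 2) and 26.3 and 26.98 CPM with MCS (mean 26.6 ± 0.480, SD, n = 2), and the gap of 1.59-fold between the nearest libraries was the widest of the 30. Its log2 fold change was -0.82 (SE 0.33, 95% interval -1.63 to -0.01, unadjusted p = 0.0476, adjusted p = 1 in edgeR). Markers of Mueller glia (12 of 12 below 0, 8 of them without overlap) and of astrocytes (4 of 5 below 0, 3 without overlap) lay lower in the same libraries as Hdac7. Of the 6 endothelial and pericyte markers tested 1 was lower, Pdgfrb, and 1 higher, Pecam1, without overlap, beside 16.6% and 15.0% of all genes. Pecam1 had only 10 to 37 counts, Tek 3 to 41 and Cldn5 0 to 15, and Cdh5 had 0 in all 4 libraries. The sum of the 6 was 387 and 316 CPM with CrAT and 661 and 245 CPM with MCS. Most of it came from Kdr, singled out after its values were seen, with 346 and 283 CPM against 593 and 205 CPM. The sum thus largely followed 1 gene. The part of these cells in the Hdac7 values was not tested. Hdac5, which is exported from the nucleus of injured sensory neurons, was 103 and 146 CPM against 151 and 157 CPM, lower with 3.89% between the nearest libraries. Hdac4 (25.9 to 32.1 CPM) and Hdac9 (39.1 to 53.5 CPM) overlapped between the groups. The list of MEF2 factors and partners had 8 genes, 0 of which passed in edgeR, with 3 above 0 and 5 below.

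Hdac6, the cytoplasmic class IIb enzyme that deacetylates alpha-tubulin and is studied in axon transport, was 62.0 and 62.9 CPM with CrAT and 44.7 and 33.6 CPM with MCS. The groups did not overlap, with 1.39-fold between the nearest libraries. The log2 fold change was 0.67 (SE 0.30, 95% interval -0.05 to 1.40), from 0.48 without MCS replicate 2 to 0.89 without MCS replicate 1. Hdac10, the polyamine deacetylase of the same class, was 23.9 and 28.1 CPM against 29.96 and 24.4 CPM, so that Hdac6 stood at 1.505 and 1.30 times Hdac10 per exon length in CrAT and at 0.867 and 0.801 in MCS. Hdac11, the class IV enzyme, a remover of long fatty acyl groups, was 52.5 and 93.7 CPM with CrAT and 44.4 and 99.3 CPM with MCS. Its groups coincided and its replicates did not. Over all 11 zinc-dependent deacetylases the sum was 128.2 and 144.1 FPKM in CrAT and 130.4 and 131.2 FPKM in MCS, and acetyltransferases stood at 0.744 to 0.811 of that sum in each library.

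Among the sirtuins the groups lay apart in 3 of 7, beside 31.6% of all genes. Sirt7, the nucleolar enzyme that acts on histone H3 lysine 18 and ribosomal gene transcription, was 31.9 and 32.3 CPM with CrAT and 46.2 and 43.0 CPM with MCS, at a log2 fold change of -0.47 (SE 0.29, 95% interval -1.17 to 0.22). Sirt1 was 4.82 and 2.87 CPM against 5.47 and 6.34 CPM, from 76 to 175 counts, at -0.62 (SE 0.47, 95% interval -1.75 to 0.51). The mitochondrial Sirt4 was 21.2 and 21.1 CPM against 15.3 and 19.1 CPM, at 0.30 (SE 0.34). Sirt3, the main mitochondrial deacetylase, was 72.3 and 94.6 CPM against 54.3 and 74.3 CPM, with an overlap of the groups. Sirt5, which removes succinyl and malonyl groups, was 17.5 and 30.02 CPM against 12.02 and 24.4 CPM. All 3 mitochondrial members had a fold change above 0, though Sirt5 turned to -0.043 without CrAT replicate 2 and to -0.036 without MCS replicate 1, and none passed the test. Sirt2 was 115.3 to 127.6 CPM over the 4 libraries, the narrowest relative range of the sirtuins, at 0.00 (SE 0.27, 95% interval -0.64 to 0.65).

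**Figure D2:**
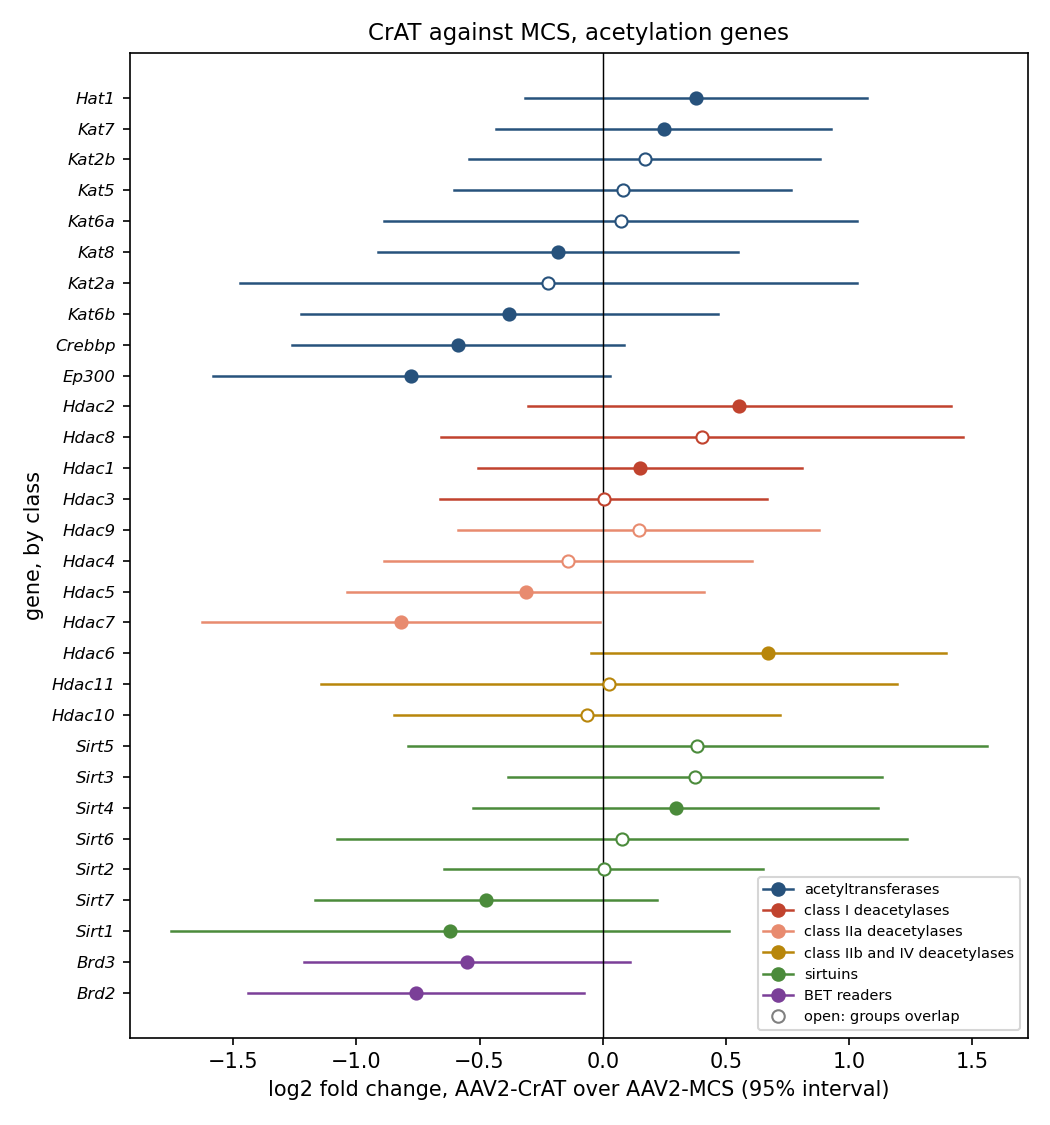
Log2 fold change of each gene, AAV2-CrAT over AAV2-MCS, with the 95% interval of the edgeR fit as a line; colours give the class, and filled points are genes whose 2 CrAT libraries lie on one side of both MCS libraries. The interval includes 0 for 28 of the 30 genes, and the exceptions are Brd2 and Hdac7.

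Over the 30 genes, 10 had both CrAT libraries below both MCS libraries, where 16.6% of all genes did, and 6 had both above, where 15.0% did. In either direction the groups did not overlap in 31.6% of all genes. The gap between nearest libraries was 29.8% or more for Brd2, Brd3, Ep300, Crebbp, Hdac7, Sirt7 and Hdac6, and at most 13.5% for the other 9 of these 16. That division was made after the gaps were seen, and the share of all genes with gaps as wide was not computed. Leaving out 1 library brought the log2 fold change closer to 0 by more than 1.5 times in 10 of the 16. Without MCS replicate 2 it was 0.11 for Kat7, -0.022 for Kat8, 0.036 for Hdac1 and 0.22 for Hdac2. Without CrAT replicate 1 it was -0.15 for Kat6b, 0.22 for Hat1 and -0.083 for Hdac5, and without CrAT replicate 2 it was -0.28 for Sirt1. Without MCS replicate 1 it was 0.14 for Sirt4 and -0.51 for Ep300. The median log2 fold change of the 30 was 0.01, beside 0.01 for all genes tested, and the median size without sign was 0.30 beside 0.31. Of the 30 genes, 8 had a log2 fold change beyond 0.5 in size, 26.7%, and among all genes 30.9% did. For 10 of the 30 the 95% interval lay within 1 log2 unit of 0 on both sides.

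By the median, the members differed less between the 2 libraries of a group than all genes tested did. The median log2 difference without sign was 0.19 in CrAT and 0.30 in MCS, beside 0.40 and 0.57 for all genes tested. Several members still differed more between the 2 libraries of a group than between the groups. Hdac11 and Kat2a, a subunit of the SAGA complex with 21.4 and 42.8 CPM with CrAT and 23.3 and 51.5 CPM with MCS, were about as far apart within each group, and Sirt5, Sirt6 and Sirt3 had the same direction. In these, with Hdac3, both libraries numbered 2 lay above both numbered 1. There were 6 such members, and 24.1% of all genes. Kat6a, Hdac4, Hdac9 and Sirt2 lay below in both, with 23.5% of all genes. The libraries numbered 2 also held more amacrine marker transcripts, at 2804 and 1899 CPM against 986 and 1149 CPM, and fewer rod markers, at 23510 and 25089 CPM against 44623 and 43634 CPM. Their part in these values was not tested. The ratio of Kat2a to Kat2b per exon length was 0.603 and 1.49 in CrAT and 0.837 and 1.77 in MCS.

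**Figure D3:**
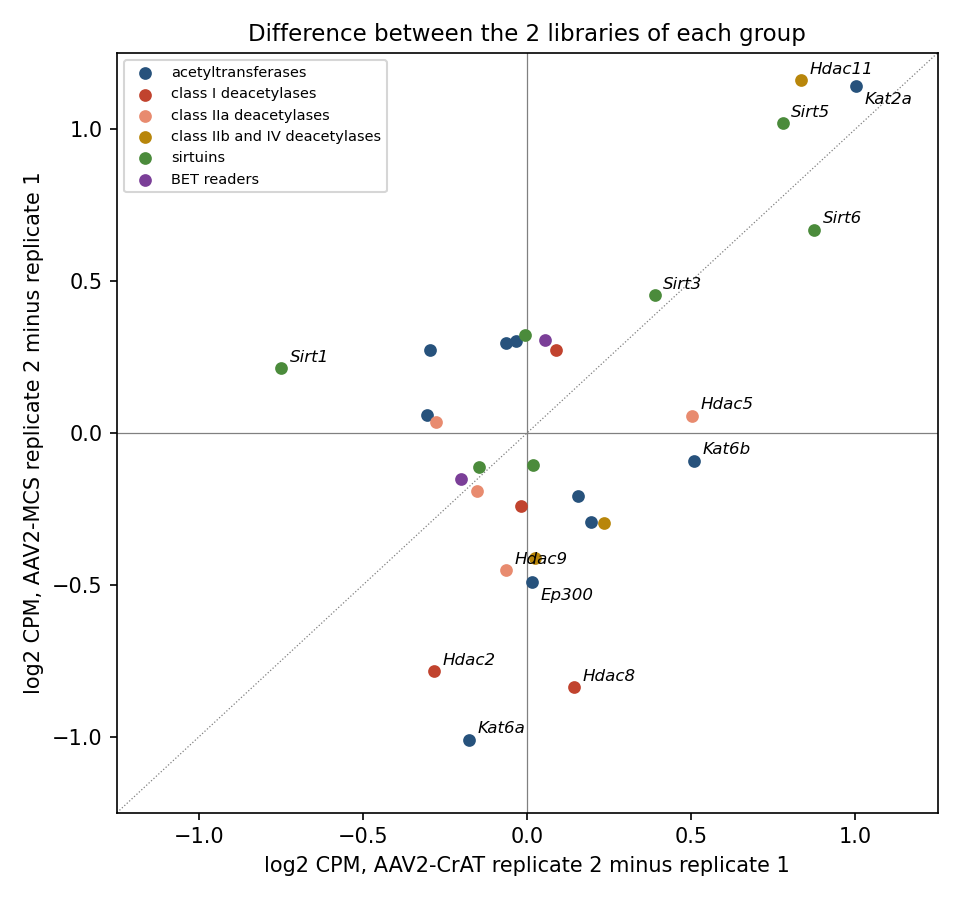
Difference in log2 CPM between replicate 2 and replicate 1, in AAV2-CrAT on the horizontal axis and in AAV2-MCS on the vertical axis, 1 point per gene; the dotted line marks equal differences. Kat2a, Hdac11, Sirt5 and Sirt6 lie far to the upper right, while Hdac2, Hdac8 and Kat6a lie low, being apart mainly in MCS.

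By their medians the members that lay lower in CrAT had longer exons and more G and C in their promoters than the others, which was not so for each of them: Kat8 had 2891 bases of exons and a window of 53.0% GC, and those of Sirt7 and Brd2 had 51.3% and 58.7% GC, below the median of 60.3% over the windows of all genes tested. The median summed exon length was 7581 bases for the 10 lower members, 3960 bases for the 6 higher ones and 4853 bases for the 14 whose groups overlapped. Over the genes tested with a mean of at least 1 FPKM it was 3975 bases for those lower, 3508 for those higher and 3455 for those that overlapped, so the members were long in each class. Of the 9 members with at least 7000 bases of exons and a mean of at least 1 FPKM, 6 lay lower and 0 higher without overlap. Among the 2656 genes tested of that length and level 19.2% lay lower and 12.9% higher, and their median log2 fold change was -0.04, and 0.15 without MCS replicate 1, so that the median of long genes depended on that library. Across the 30 genes Spearman's rho of exon length with log2 fold change was -0.39, and -0.073 across 14832 genes with a mean of at least 1 FPKM. Both are descriptions over genes that share the same 4 libraries.

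**Figure D4:**
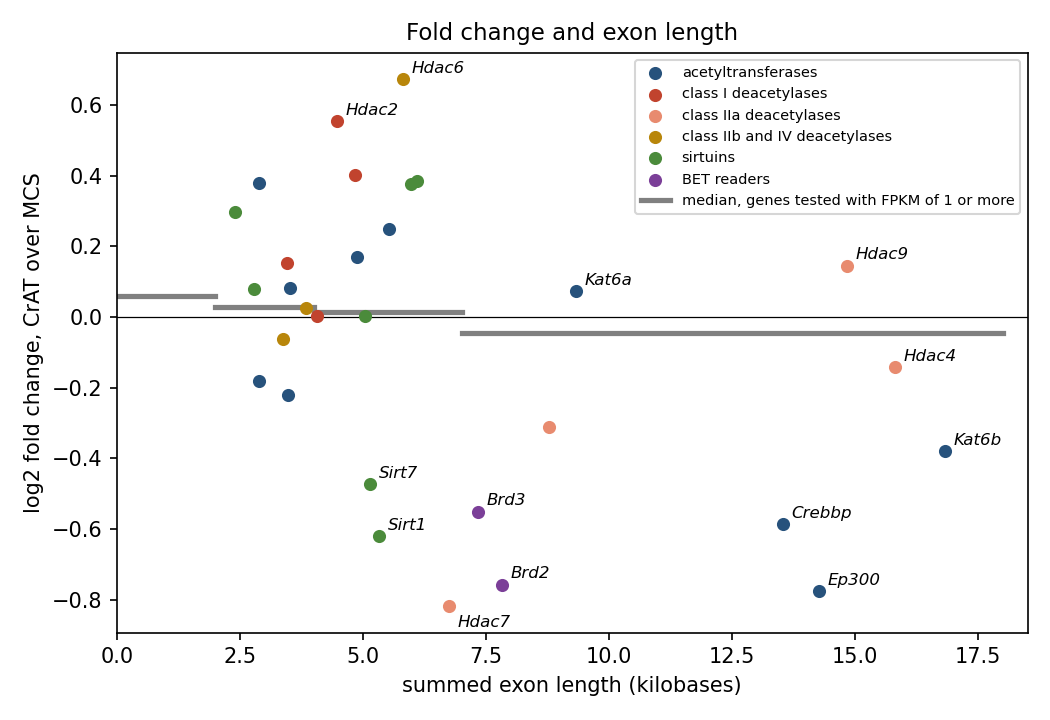
Log2 fold change against summed exon length in kilobases, 1 point per gene coloured by class; grey bars are the medians of all tested genes with a mean of at least 1 FPKM in 4 ranges of length. At 7 kilobases or more Ep300, Crebbp, Kat6b, Brd2, Brd3, Hdac4 and Hdac5 lie below 0, while Hdac9 and Kat6a lie slightly above it.

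Promoter windows from RefSeq (GRCm38.p6) matched 26 of the 30 genes, with none for Hdac1, Hdac3, Hdac10 and Kat6a. The first listed window of each gene was used. The GC box GGGCGG was in 10 of the 10 windows of members lower in CrAT, 3 of 5 of those higher and 4 of 11 of those that overlapped. Among all genes tested with a window, 66.3% of those lower without overlap, 58.9% of those higher and 60.2% of the rest held it. The median GC content of the windows was 73.0% for the lower members and 62.0% for the higher ones, beside 62.3% and 59.3% for all genes lower and higher. CCAAT was in 12 of 26 member windows (38.9% of the windows of all genes tested), TGACG in 11 (30.04%), CCGGAAG in 7 (16.3%), CACGTG in 4 (9.72%), TATAAA in 2 (7.58%) and TGANTCA in 1 (5.003%). A match is a run of letters in the window and no evidence of binding, and TGACG can overlap other motifs.

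Subunits of the complexes that carry these enzymes were also compared. None of 30 subunits of acetyltransferase complexes passed in edgeR, with 16 above 0 and 14 below, a median of 0.05, and 9 lower and 7 higher without overlap (16.6% and 15.0% of all genes). Msl1, the scaffold of the Kat8 MSL complex, was 14.6 and 17.8 CPM with CrAT and 26.1 and 27.3 CPM with MCS, and Supt7l, a SAGA subunit, was 65.5 and 55.2 CPM against 40.9 and 43.9 CPM. Of 30 subunits of deacetylase corepressor complexes 0 passed, with 6 above 0 and 24 below and a median log2 fold change of -0.18. Rbbp4, the histone chaperone of the Hdac1 and Hdac2 complexes, went the other way, with 467 and 418 CPM against 333 and 177 CPM, lowest in MCS replicate 2 like Hdac2 itself. Among 16 tested genes of other acetyltransferases 0 passed, with 7 above 0 and 9 below and a median log2 fold change of -0.04. Without overlap 2 were higher and 2 lower (15.0% and 16.6% of all genes). The nuclear receptor coactivator Ncoa1 was lower, with 52.9 and 33.9 CPM against 69.9 and 75.7 CPM. Naa60 and Nat10 were higher, at log2 fold changes of 0.29 and 0.27. Of 13 genes of acetyl-CoA and NAD supply 0 passed, and Acly, which makes acetyl-CoA from citrate outside mitochondria, was 371 and 390 CPM with CrAT and 318 and 246 CPM with MCS. Slc25a1, the mitochondrial citrate exporter, was lower, with 19.9 and 25.2 CPM against 28.6 and 38.0 CPM, and of the 13 genes 4 lay lower and 3 higher without overlap. Nampt, the rate-setting enzyme of NAD salvage, was 57.7 and 55.6 CPM against 51.3 and 32.1 CPM, and without MCS replicate 2 its log2 fold change was 0.14.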

How the data were processed

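RNA of 4 libraries, 2 AAV2-CrAT and 2 AAV2-MCS, grouped by sample title, was analysed. Full-length cDNA was amplified with a SMART-seq kit for small input, per the labels' protocols, and carries no strand. Reads of antisense partners therefore cannot be told apart by strand. STAR 2.7.2b is the aligner, and GRCm38.p6 and mm10 are the builds, that stand in the submitters' processing notes. For annotation and counter: not given in the sources used here. Gene coordinates in the deposited table name no build, differ from GRCm38.p6 and were not used. Per gene the authors deposited estimated counts and FPKM, which uses summed exon length. The deposited counts were whole numbers and entered the fits unchanged. Each table also held 2 columns of other samples, 4 in all, which were not used.

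Genes were kept with filterByExpr (edgeR 4.0.16, R 4.3.3), libraries scaled by TMM (factors 0.970 to 1.02), and CrAT was compared with MCS by the quasi-likelihood F test with robust estimation, 2 residual degrees of freedom, two-sided. The p-values were adjusted over all 19638 genes and the threshold was 0.05. Intervals at 95% come from that fit. A permutation of 2 against 2 libraries cannot go below p = 0.333, so none was run. On simulated counts for 19638 genes with these library sizes edgeR recovered 8% of 50 genes changed 2-fold and 52% of those changed 4-fold. DESeq2 1.42.0, limma 3.58.1 on log2(FPKM + 0.1), other scalings and filters, a replicate block and each library left out were alternatives. Replicates differed by more than sampling noise (chi-square divided by its degrees of freedom was 77.5 for CrAT and 131 for MCS). Every member was named. Of further lists, Crat and up to 4 genes with the smallest p could be named, if their mean was 1 log2 CPM or more and the groups lay apart. Members and lists were chosen with earlier results of these data known.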

Additional observations from a re-analysis of the deposited data

How the results depend on the processing

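No member passed the threshold under any alternative run, and those were other size factors, other filters, DESeq2, limma on FPKM, the replicate block, no robust estimation and each library left out. Over all genes 0 passed in edgeR, against 2 with no filter on low counts and 54 in DESeq2 (0.275% of genes tested). The median log2 fold change of the members was 0.01, -0.036 with library totals only, and from -0.048 to 0.048 with each library left out. For the replicate block, 0 genes and 0 members passed, and the members' median was 0.031. At an unadjusted p under 0.05 the block gave 7 members and 1922 of the 19638 genes, against 2 and 815 without it. Same-numbered libraries deviated together, with a correlation of 0.47 over all genes, but 2 pairs do not show that the numbers pair the samples. With library totals only, which moved the median over all genes from 0.01 to -0.045, the signs of Hdac3 (-0.049), Hdac11 (-0.023) and Sirt2 (-0.050) turned. At 50 or more counts in 2 libraries Hdac3 was -0.0044 and Sirt2 -0.0051, and with limma on FPKM Hdac3 was -0.043, Sirt2 -0.049 and Sirt6 -0.00020. Leaving out 1 library can hardly turn the sign of a gene whose groups lie apart, since the order of the groups stays. With each library left out in turn, 10 members, all with overlapping groups, changed sign. Their ranges were -0.80 to 0.46 for Kat2a, -0.019 to 0.19 for Kat5, -0.35 to 0.66 for Kat6a, -0.13 to 0.15 for Hdac3, -0.063 to 0.39 for Hdac9, -0.20 to 0.094 for Hdac10, -0.44 to 0.72 for Hdac11, -0.072 to 0.088 for Sirt2, -0.043 to 0.98 for Sirt5 and -0.41 to 0.45 for Sirt6. The cause was not tested. The fewest counts of a member were 76, for Sirt1, whose SE of 0.47 stood beside 0.27 for Sirt2, and with 2 libraries a group, changes of 2-fold or less are mostly not detectable.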
